A study of Mus musculus with 7 samples.

Results

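Voltage-gated sodium and calcium channels are described here through 39 genes of the 35976 gene symbols in the counts table. They were matched by a rule on gene symbols that holds no measured value, though it was chosen with earlier results of these data known. Of them, 19 are pore-forming genes (the Scn alpha subunits and Cacna1 genes). The other 20 are auxiliary genes (the Scn beta subunits and the Cacna2d, Cacnb and Cacng genes). Scn2a, a sodium channel pore gene, stands in the table under its older symbol Scn2a1, which the rule does not match, and its counts enter only where they are named. The libraries are RNA-seq of cells isolated as neurons from the amygdala of C57BL/6J male mice. Guides came in an adeno-associated virus, either against Nr2f2, which encodes the nuclear receptor COUP-TFII (sgNr2f2, 3 libraries), or against the Rosa locus (sgRosa, the control, 4 libraries), with Cas9 under the neuronal Hsyn promoter. All 7 libraries come from mice that were restrained in tubes on 7 days, fear-conditioned on 1 and given extinction on 3, so every group is stressed. The labels do not say whether a library is 1 animal or a pool, nor give the animals' age, so a p-value here speaks of the variation among these 7 libraries.

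Voltage-gated sodium channels carry the rising phase of the action potential. Each has 1 alpha subunit that forms the pore and senses voltage, joined by beta subunits that set its gating and its place in the membrane. Voltage-gated calcium channels turn depolarisation into calcium entry, which drives transmitter release at terminals and gene regulation at the soma. Their alpha1 subunit forms the pore, the intracellular beta subunit and the extracellular alpha2delta subunit bring it to the surface, and alpha2delta is the target of gabapentin. The gamma genes were named after a muscle channel subunit, but most of them encode TARPs, which traffic and gate AMPA-type glutamate receptors in the brain. In the amygdala these genes set how neurons fire and how synapses change during fear learning.

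Total counts ran from 6266897 to 20928677 per library, and levels are CPM, counts scaled to TMM-adjusted library sizes. The targeted gene Nr2f2 was counted 422, 305, 166 and 96 times across the sgRosa libraries and 196, 214 and 191 times across sgNr2f2, a log2 fold change of -0.36 (SE 0.374) that did not pass (edgeR adjusted p = 0.905). Neuron markers were a small part of every library and oligodendrocyte markers a large one, although the cells are labelled as neurons. The 15 pan-neuronal markers, all with counts in every library, took 0.0731 to 0.147% of counts in sgRosa replicates 1 to 3, 0.413% in sgRosa replicate 4 and 0.0809 to 0.101% in sgNr2f2. The 11 oligodendrocyte markers took 13.6 to 29.5%, 2.69% and 17.9 to 32.2% in the same order. sgRosa replicate 4 thus stands apart, with the most neuron marker and the least oligodendrocyte marker signal, and erythroid markers took 3.70% of it against 0.0958 to 0.316% elsewhere. For members whose value it moves most, the value without it is given too. In bulk RNA, fewer neurons and less channel RNA per neuron cannot be told apart.

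Compared per kilobase of the longest annotated transcript, auxiliary subunits were the most abundant channel transcripts. Scn2b, a sodium channel beta subunit, had a mean over all 7 libraries of 8.83 CPM per kilobase, and Cacna2d1, an alpha2delta subunit, one of 8.15. Cacnb3, Cacng2, Scn3b and Cacnb4 lay between 4.17 and 4.67 CPM per kilobase, a difference smaller than their spread between libraries. Of the pore-forming members Scn1a came first at 3.92 CPM per kilobase, then Scn8a at 2.64 and the R-type calcium channel gene Cacna1e at 1.17. The pore gene Scn2a1, which the rule leaves out, was above them all at 4.85 CPM per kilobase. Scn3a, Cacna1b and Cacna1a were level with each other, from 0.981 to 1.01. Several genes of skeletal muscle, retina and sensory ganglia were at or near 0: Scn4a, Scn10a, Scn11a and the retinal gene Cacna1f had 1, 4, 3 and 6 counts over all 7 libraries, and Cacng1 and Cacng6 had 11 and 14. These genes and Cacng8 were among the members that did not pass the filter on low counts, which 31 of the 39 members passed.

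**Figure D1:**
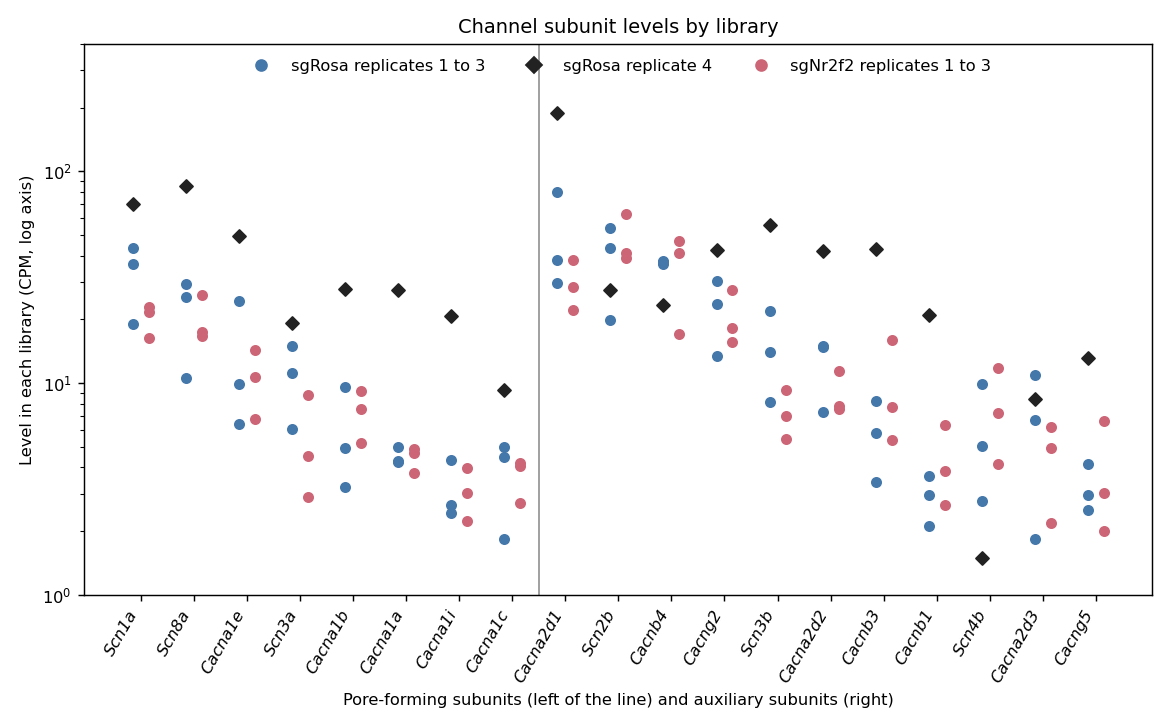
Level of 19 members of high mean CPM in each library, in CPM on a log axis, with pore-forming genes left of the line and auxiliary genes right of it. Each point is 1 library. The black diamond, sgRosa replicate 4, is the highest point for most genes but not for Scn2b, Cacnb4, Scn4b or Cacna2d3, and red sgNr2f2 points overlap the sgRosa points for all 19 genes.

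Promoter sequence was at hand for 29 of the 39 members (39 windows of 300 bases, from 250 before to 50 after each annotated start, RefSeq, GRCm38.p6). The nuclear receptor core motif AGGTCA, searched on both strands, is one that COUP-TFII and many other nuclear receptors recognise. It stood in 4 of the 39 windows (10.3%) and in 16.3% of all 32851 promoter windows. A direct repeat of the core motif with 1 base of any kind between its copies was in 0 member windows and in 13 of all, searched on both strands. The GC box GGGCGG, searched on both strands, stood in 16 member windows (41.0%) and in 35.7% of all. Median GC content was 59.7% in member windows and 52.7% in all. The windows with the core motif belong to Scn1a, Scn8a, Cacng8 and Cacna1f, and a match is a description of letters, not a binding site. The first pair of sequences shows the core motif in capitals, in the orientation found, and the second pair shows the 90 bases before the start of Cacna1i and Cacng5, low members whose level in sgRosa replicate 4 stood far above the rest. All 4 lie in no GENCODE M21 exon, and that of Scn8a lies before an inner start, within the gene's span.
Scn8a (chr15:100936058-100936147, plus strand): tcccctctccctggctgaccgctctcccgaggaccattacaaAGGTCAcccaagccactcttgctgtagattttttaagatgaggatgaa
Cacng8 (chr7:3393876-3393965, plus strand): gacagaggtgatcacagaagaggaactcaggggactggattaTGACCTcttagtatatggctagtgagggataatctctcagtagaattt
Cacna1i (chr15:80287148-80287237, plus strand): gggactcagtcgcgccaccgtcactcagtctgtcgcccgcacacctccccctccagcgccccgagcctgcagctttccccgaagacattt
Cacng5 (chr11:107915056-107915145, minus strand): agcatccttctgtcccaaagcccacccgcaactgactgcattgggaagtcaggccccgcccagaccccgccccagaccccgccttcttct

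Comparing sgNr2f2 with sgRosa asks which channel transcripts respond to the guide against Nr2f2 after stress. None of the 31 tested members passed edgeR's test after adjustment over all 14412 tested genes (smallest member adjusted p = 0.868), and 0% of all genes did. By edgeR 4 members had an unadjusted p under 0.05, all with lower levels in sgNr2f2 (Scn3b, Scn7a, Cacna2d1 and Scn3a), where 2.82% of all genes did on that side. DESeq2, which called 0.0293% of all genes, and limma-voom also called 0 members. Most point estimates were below 0: 24 of 31 members, against 56.2% of all genes. The median log2 fold change was -0.76 over the 31 members and -0.11 over all genes. It was -1.07 over the 14 tested pore-forming members, 13 of them below 0, and -0.53 over the 17 tested auxiliary members, 11 of them below 0.

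That lean was smaller without sgRosa replicate 4. This library held the highest level of 7 libraries for 23 of the 31 tested members. How many of all genes were highest in this library was not counted. Without it the median log2 fold change was -0.13 over 13 pore-forming and 0.27 over 17 auxiliary members, with 18 of 30 members below 0 against 52.5% of all genes. With library sizes set to the pan-neuronal marker counts the medians were -0.16 and 0.22, with 14 of 30 members below 0 against 33% of all genes, whose median moved to 0.23. On TMM-scaled levels of all 7 libraries, Scn7a was the 1 member whose groups did not overlap, where 3.9% of all genes lay apart on the lower side and 4.41% on the higher. Scaled to pan-neuronal markers the groups of Scn7a overlapped, and Cacng4 was the 1 member apart, on the higher side, against 5.6% of all genes there and 0.646% on the lower side. Without sgRosa replicate 4 the members apart on TMM-scaled levels were Scn7a on the lower side and Cacng4 and Cacna1h on the higher, against 8.95% and 9.11% of all genes.

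**Figure D2:**
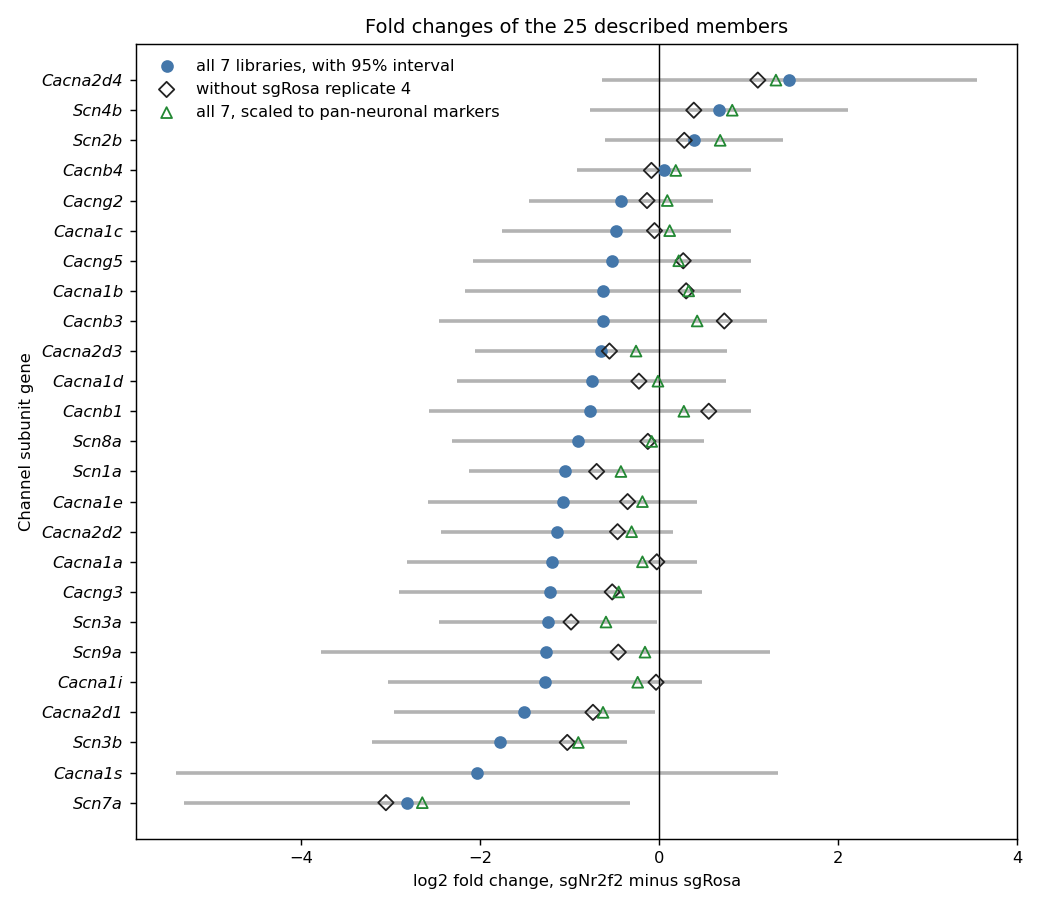
Log2 fold change of the 25 members described by value, sgNr2f2 minus sgRosa. Circles are the fit with all 7 libraries and grey bars its 95% interval, diamonds leave out sgRosa replicate 4, and triangles scale to pan-neuronal markers. Diamonds and triangles lie nearer 0 than circles for most genes with a circle below 0, and Scn3b and Scn7a keep values near or beyond -0.90 in all 3.

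Among sodium channel pores, Scn1a and Scn3a lay lower in most sgNr2f2 libraries, with overlap. Scn1a encodes Nav1.1, the channel of fast-spiking interneurons whose loss causes Dravet epilepsy (mm10 chromosome 2, 66270781 to 66440837). Its level stood at 36.5, 19.03, 43.4 and 70.2 CPM across sgRosa replicates 1 to 4 and 21.7, 22.95 and 16.3 CPM across sgNr2f2 replicates 1 to 3. Only sgRosa replicate 2 lay within the range of sgNr2f2, and the other 3 sgRosa libraries were above it. The log2 fold change of Scn1a was -1.06 (SE 0.4797), -0.70 without sgRosa replicate 4 and -0.43 scaled to pan-neuronal markers (edgeR adjusted p = 0.868). Scn3a, the Nav1.3 gene that is strongest in the developing brain (chromosome 2, 65457118 to 65567591), was measured at 14.9, 6.06, 11.1 and 19.2 CPM across sgRosa replicates 1 to 4 and 4.54, 8.79 and 2.902 CPM across sgNr2f2 replicates 1 to 3. The high sgNr2f2 replicate 2 overlapped sgRosa, and the other sgNr2f2 libraries were below every sgRosa library. sgNr2f2 against sgRosa gave a log2 fold change of -1.24 (SE 0.5498) with all libraries, -0.98 without sgRosa replicate 4, -0.59 scaled to pan-neuronal markers and -1.78 without sgNr2f2 replicate 2.

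Scn8a encodes Nav1.6, the channel of the axon initial segment and nodes of Ranvier (chromosome 15, 100869863 to 101045938). Its level was 29.5, 10.6, 25.6 and 85.6 CPM in sgRosa and 26.1, 17.5 and 16.6 CPM in sgNr2f2, in replicate order. All 3 sgNr2f2 values lay inside the range of sgRosa replicates 1 to 3. The log2 fold change of -0.91 (SE 0.635) became -0.13 without sgRosa replicate 4. Scn9a, the Nav1.7 gene best known from pain neurons, had 44, 18, 38 and 57 counts over the sgRosa libraries (replicates 1 to 4) against 1, 65 and 6 over the sgNr2f2 libraries (replicates 1 to 3). sgNr2f2 replicates 1 and 3 were nearly without it, while replicate 2 had more than any sgRosa library in counts. In CPM sgRosa replicate 4 was the highest library at 7.76, and sgNr2f2 replicate 2 stood at 3.64. For Scn9a the log2 fold change was -1.27 (SE 1.13) with all libraries, -0.46 without sgRosa replicate 4 and -3.90 without sgNr2f2 replicate 2. Part of the Scn9a count may belong to the opposite-strand gene Gm13629, whose exons overlap its own.

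Scn7a encodes Nax, an atypical family member that senses sodium concentration in glia and does not open by voltage. It had 29, 60, 12 and 5 counts over the sgRosa libraries (replicates 1 to 4) against 3, 8 and 0 over the sgNr2f2 libraries (replicates 1 to 3). Every sgNr2f2 library lay below every sgRosa library in CPM. The means were 1.52 ± 1.18 CPM in sgRosa (SD, n = 4) and 0.2098 ± 0.225 CPM in sgNr2f2 (SD, n = 3). In log2 terms the difference was -2.82 (SE 1.12), with an edgeR adjusted p of 0.868. The exact two-sided permutation p was 0.0571, the smallest that this test can give with these 7 libraries. It was -2.15 without sgRosa replicate 2, which held most of the counts, and -3.97 without sgNr2f2 replicate 2. Astrocyte markers took 0.0364 to 0.0762% of counts in sgRosa and 0.0304 to 0.0544% in sgNr2f2, and pericyte and smooth muscle markers 0.0172 to 0.0467% and 0.00806 to 0.0240%. Their part in the level of Scn7a was not tested.

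Sodium channel beta genes had estimates on both sides of 0, and Scn3b was the member with the smallest edgeR p. Scn3b encodes a beta subunit that binds the pore without a covalent bond (chromosome 9, 40269216 to 40291618). Its level was 22.00, 8.17, 13.99 and 55.5 CPM across sgRosa replicates 1 to 4 and 6.96, 9.29 and 5.44 CPM across sgNr2f2 replicates 1 to 3. sgRosa replicate 4 was the highest, and sgRosa replicate 2 alone lay inside the sgNr2f2 range. The means were 24.9 ± 21.2 CPM in sgRosa (SD, n = 4) and 7.23 ± 1.94 CPM in sgNr2f2 (SD, n = 3). The log2 fold change was -1.78 (SE 0.642), 95% interval -3.20 to -0.35. By edgeR p was 0.0192 and adjusted p 0.868, and the exact permutation test gave p = 0.114. Leaving out sgRosa replicate 4 gave -1.03, and scaling to pan-neuronal markers -0.90.

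Scn2b and Scn4b encode the beta subunits that link to the pore by a disulfide bond, and both had higher means in sgNr2f2. Scn2b (chromosome 9, 45117876 to 45130070) was measured at 53.9, 19.95, 43.6 and 27.6 CPM across sgRosa replicates 1 to 4 and 62.8, 41.1 and 38.9 CPM across sgNr2f2 replicates 1 to 3. This is a log2 fold change of 0.39 (SE 0.447), from 0.13 to 0.64 with single libraries left out, and the groups overlapped. Scn4b, whose tail acts in resurgent sodium current, was at 5.06, 2.76, 9.92 and 1.497 CPM in sgRosa and 7.198, 4.14 and 11.8 CPM in sgNr2f2. The log2 fold change of Scn4b was 0.67 (SE 0.649). Single libraries moved it: leaving out sgNr2f2 replicate 3 gave 0.23, sgRosa replicate 3 1.32 and sgRosa replicate 4 0.39. sgRosa replicate 4, the highest library for most members, was the lowest for Scn4b and the second lowest of the 7 for Scn2b. Per 10000 pan-neuronal marker counts, Scn2b stood at 509.7, 255, 403 and 78.4 across sgRosa replicates 1 to 4 and 569, 549.7 and 381 across sgNr2f2 replicates 1 to 3. The corresponding values of Scn4b were 47.8, 35.3, 91.7 and 4.25 across sgRosa replicates 1 to 4 and 65.2, 55.4 and 115 across sgNr2f2 replicates 1 to 3. sgRosa replicate 4 was thus the lowest of the 7 libraries for both, by a wide margin. Cacnb4 and Cacna2d4 had the same place on that scale, at 66.00 and 0.386 in sgRosa replicate 4 against 228 to 482 and 9.74 to 97.5 in the other 6. In all, sgRosa replicate 4 was the lowest library on that scale for 9 of the 31 tested members, Cacng2, Cacna1g, Cacnb2, Cacna1h and Cacng7 being the others. The share of all genes lowest in it on that scale was not counted. sgRosa replicate 4 was also the library with the least oligodendrocyte marker signal (2.69% of counts). The part of other cell types in these levels was not tested.

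**Figure D3:**
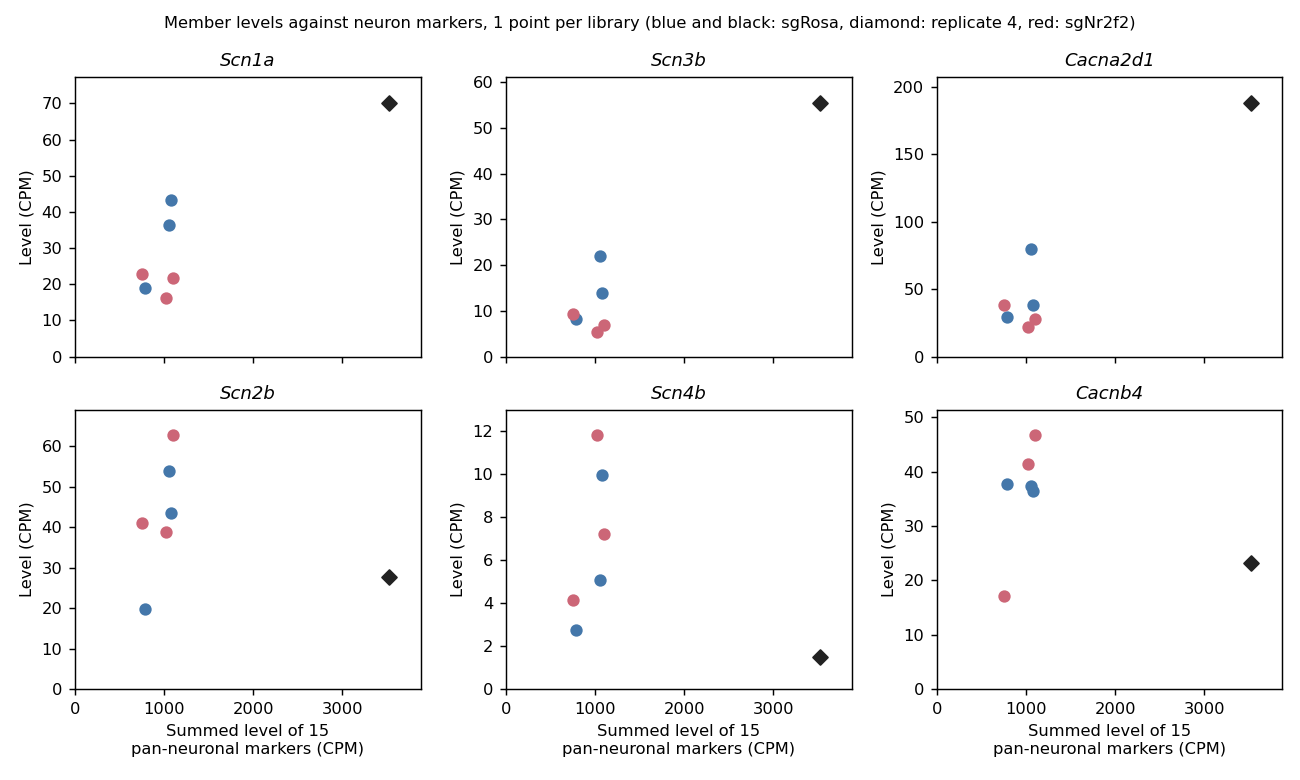
Level of 6 members in CPM against the summed level of 15 pan-neuronal markers in CPM, 1 point per library. Scn1a, Scn3b and Cacna2d1 (top) are highest in sgRosa replicate 4, the library with the most neuron marker signal, whereas Scn2b, Scn4b and Cacnb4 (bottom) are not.

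The makeup of the sodium channel transcripts can be read without any scaling between libraries. Scn3b took 27.2, 26.4, 20.7 and 65.6% across sgRosa replicates 1 to 4 and 9.04, 17.04 and 9.69% across sgNr2f2 replicates 1 to 3 of the summed counts of the beta genes Scn2b, Scn3b and Scn4b. All sgNr2f2 shares were below all sgRosa shares, but this follows from the same counts as its level and is a description. The share of Scn2b was 66.6, 64.6, 64.6 and 32.6% across sgRosa replicates 1 to 4 and 81.6, 75.4 and 69.3% across sgNr2f2 replicates 1 to 3. All sgNr2f2 shares of Scn2b were above all sgRosa shares, which is not independent of Scn3b since the shares add up. The sum does not take in every sodium channel beta gene of the set. These shares therefore describe only Scn2b, Scn3b and Scn4b among themselves, and a wider sum could change which groups overlap. sgRosa replicate 4 had the smallest share of Scn2b and the largest of Scn3b. Among the neuronal pores Scn1a, Scn2a1, Scn3a and Scn8a, Scn1a took 23.1, 31.9, 37.3 and 27.4% across sgRosa replicates 1 to 4 and 25.2, 29.1 and 28.5% across sgNr2f2 replicates 1 to 3. Scn2a1, the Nav1.2 gene of excitatory neurons, took 48.7, 40.3, 31.1 and 31.7% across sgRosa replicates 1 to 4 and 39.2, 37.7 and 37.4% across sgNr2f2 replicates 1 to 3. Scn8a took 22.96 ± 7.19% in sgRosa (SD, n = 4) and 27.2 ± 4.43% in sgNr2f2 (SD, n = 3), and Scn3a 9.17 ± 1.16% and 7.16 ± 3.44%. The groups overlapped for all 4 pores, with differences of means inside the SD of at least 1 group. Shares were also computed for the alpha2delta, calcium beta, T-type, L-type and P/Q, N and R-type genes. In those families the groups overlapped for every gene. Only the pore shares of the sodium channels were planned, so the beta shares that lay apart were picked out among several families.

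**Figure D4:**
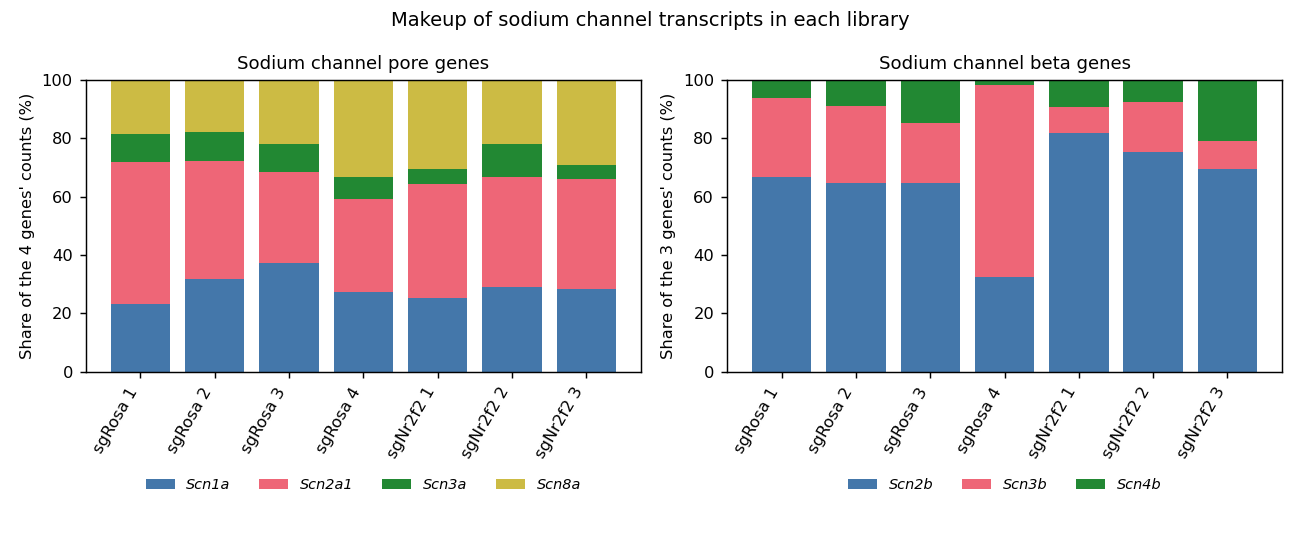
Share of each gene in the summed counts of 4 sodium channel pore genes (left) and 3 beta genes (right), in percent, 1 bar per library. On the right the Scn3b segment is 20.7 to 65.6% in sgRosa and 9.04 to 17.04% in sgNr2f2, and Scn2b and Scn4b are smallest in sgRosa replicate 4.

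Calcium channel pores of the presynaptic class had lower means in sgNr2f2, and most of that difference was gone without sgRosa replicate 4. Cacna1e encodes the R-type channel Cav2.3 (chromosome 1, 154390806 to 154884785). Its level was 24.3, 6.38, 9.92 and 49.5 CPM across sgRosa replicates 1 to 4 and 6.77, 14.4 and 10.7 CPM across sgNr2f2 replicates 1 to 3. sgRosa replicates 1 and 4 lay above all of sgNr2f2 and replicates 2 and 3 did not. In log2 terms the difference was -1.08 (SE 0.675), and -0.35 without sgRosa replicate 4. Cacna1a, the P/Q-type gene that drives fast release and underlies episodic ataxia (chromosome 8, 84338631 to 84640251), was at 5.01, 4.22, 4.28 and 27.6 CPM in sgRosa and 3.75, 4.87 and 4.65 CPM in sgNr2f2. Leaving out sgRosa replicate 4 moved its log2 fold change from -1.20 (SE 0.7304) to -0.026. The other 6 libraries spanned only 3.75 to 5.01 CPM. Cacna1b, the N-type gene, was at 9.55, 3.24, 4.96 and 27.8 CPM in sgRosa and 7.56, 9.18 and 5.199 CPM in sgNr2f2. Here a log2 fold change of -0.62 (SE 0.696) turned to 0.30 without that library.

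L-type and T-type pore genes were low, at mean levels under 8 CPM in either group. The L-type genes Cacna1c and Cacna1d couple depolarisation to transcription in neurons. Cacna1c was at 5.01, 4.49, 1.83 and 9.25 CPM in sgRosa and 2.72, 4.199 and 4.05 CPM in sgNr2f2. Its log2 fold change was -0.48 (SE 0.577) and -0.052 without sgRosa replicate 4, and the groups overlapped. Cacna1d was at 2.76, 2.81, 2.45 and 7.62 CPM in sgRosa and 0.786, 3.53 and 2.54 CPM in sgNr2f2. In log2 terms the difference was -0.76 (SE 0.675), and -0.23 without sgRosa replicate 4. Part of the Cacna1d count may belong to the opposite-strand gene Chdh, which shares 589 exon bases. Cacna1s, the skeletal muscle gene, had 10, 15, 0 and 6 counts over the sgRosa libraries (replicates 1 to 4) against 0, 0 and 6 over the sgNr2f2 libraries (replicates 1 to 3), too few to compare. T-type channels open near rest and support burst firing. Cacna1i was at 4.35, 2.65, 2.45 and 20.8 CPM in sgRosa and 2.24, 3.02 and 3.99 CPM in sgNr2f2. Leaving out sgRosa replicate 4 took the log2 difference from -1.27 (SE 0.792) to -0.035. For Cacna1g the log2 difference was -0.21 (SE 0.574), for Cacna1h 0.29 (SE 0.587). Of the 14 tested pore-forming members, Cacna1h was the 1 with a log2 fold change above 0, at 1.48 ± 0.346 CPM in sgRosa (SD, n = 4) and 1.81 ± 0.0974 CPM in sgNr2f2 (SD, n = 3).

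Of the alpha2delta genes, Cacna2d1 had the highest level per kilobase (chromosome 5, 15934264 to 16374511). It was measured at 79.5, 29.6, 38.3 and 188 CPM across sgRosa replicates 1 to 4 and 28.3, 37.96 and 22.1 CPM across sgNr2f2 replicates 1 to 3. sgRosa replicates 1, 3 and 4 lay above every sgNr2f2 library, and replicate 2 within their range. sgNr2f2 against sgRosa gave a log2 fold change of -1.51 (SE 0.657), with edgeR p = 0.0438 and adjusted p = 0.868, and the exact permutation test gave p = 0.114. It moved to -0.74 once sgRosa replicate 4 was left out, and to -0.63 under pan-neuronal scaling. Cacna2d2 was at 14.9, 7.300, 14.7 and 42.2 CPM in sgRosa and 7.803, 11.4 and 7.56 CPM in sgNr2f2. The value of -1.14 (SE 0.582) in log2 became -0.46 without sgRosa replicate 4. Cacna2d3, which has a known part in synapse formation and pain, was at 10.96, 1.84, 6.73 and 8.44 CPM in sgRosa and 6.17, 2.18 and 4.96 CPM in sgNr2f2. The log2 difference came to -0.65 (SE 0.634), and all sgNr2f2 values lay inside the sgRosa range. Cacna2d4, a subunit known from photoreceptors, had 32, 59, 29 and 1 counts over the sgRosa libraries (replicates 1 to 4) against 178, 13 and 47 over the sgNr2f2 libraries (replicates 1 to 3). Most of its sgNr2f2 count came from replicate 1, and the log2 fold change of 1.46 (SE 0.946) was 0.033 without it.

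The intracellular beta genes differed in what sgRosa replicate 4 held. Cacnb4, the beta subunit gene of the lethargic mouse, was at 37.3, 37.7, 36.5 and 23.3 CPM across sgRosa replicates 1 to 4 and 46.7, 17.1 and 41.3 CPM across sgNr2f2 replicates 1 to 3. sgRosa replicates 1 to 3 were close together, sgRosa replicate 4 was lower, and sgNr2f2 covered a range wider than both. This is a log2 fold change of 0.055 (SE 0.4398). Cacnb3 was at 8.24, 5.84, 3.397 and 42.9 CPM in sgRosa and 5.38, 7.67 and 16.02 CPM in sgNr2f2. The log2 value of -0.63 (SE 0.826) turned to 0.73 without sgRosa replicate 4. Cacnb1 was at 3.65, 2.97, 2.11 and 20.96 CPM in sgRosa and 2.66, 3.86 and 6.35 CPM in sgNr2f2. For this gene too the sign turned, from -0.77 (SE 0.8102) to 0.55. Cacnb2 was low and level, at 2.098 ± 0.978 CPM in sgRosa (SD, n = 4) and 2.02 ± 0.519 CPM in sgNr2f2 (SD, n = 3).

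Among the TARP genes Cacng2, which encodes stargazin, had the highest level per kilobase (chromosome 15, 77991919 to 78120220). Its level was 23.7, 13.4, 30.2 and 42.6 CPM across sgRosa replicates 1 to 4 and 27.5, 15.6 and 18.2 CPM across sgNr2f2 replicates 1 to 3. Its log2 fold change was -0.43 (SE 0.462) and -0.14 without sgRosa replicate 4, and all sgNr2f2 values lay inside the sgRosa range. Cacng3 was at 7.12, 1.35, 1.97 and 12.4 CPM in sgRosa and 2.84, 1.79 and 2.66 CPM in sgNr2f2. Here the difference rested on sgRosa replicates 1 and 4, with a log2 fold change of -1.21 (SE 0.763) that was -0.52 without replicate 4. Cacng5 was at 4.17, 2.97, 2.51 and 13.1 CPM in sgRosa and 6.65, 3.02 and 1.99 CPM in sgNr2f2. The log2 value of -0.53 (SE 0.698) turned to 0.27 without sgRosa replicate 4. Cacng4, which oligodendrocyte precursors also express, stood at 1.49 ± 1.64 CPM in sgRosa (SD, n = 4) and 1.54 ± 0.301 CPM in sgNr2f2 (SD, n = 3), with a log2 fold change of 0.10, or 1.19 if sgRosa replicate 4 is left out. Markers of those precursors took 0.0160 to 0.0244% of counts in sgRosa replicates 1 to 3 and 0.00821 to 0.0329% in sgNr2f2, and their part in this level was not tested. Cacng7 overlapped between groups at a log2 difference of 0.83 (SE 0.807), and Cacng8 had 61 counts in all.

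Pore-forming against auxiliary subunits is a ratio that no library scaling can move. The summed counts of pore-forming members divided by those of auxiliary members gave 0.4696, 0.4498, 0.488 and 0.575 across sgRosa replicates 1 to 4 and 0.334, 0.542 and 0.341 across sgNr2f2 replicates 1 to 3. Per kilobase of transcript the ratio was 0.202, 0.208, 0.221 and 0.207 across sgRosa replicates 1 to 4 and 0.143, 0.226 and 0.131 across sgNr2f2 replicates 1 to 3. The 4 sgRosa libraries lay close together on the second scale, at 0.209 ± 0.00789 (SD, n = 4). sgNr2f2 replicates 1 and 3 were below all of them and replicate 2 was above, at 0.167 ± 0.0515 (SD, n = 3) for the group, so the groups overlapped. With Scn2a1 added to the pores the count ratio was 0.671 ± 0.0570 in sgRosa and 0.539 ± 0.148 in sgNr2f2. The difference of the mean count ratios, -0.090, ran from -0.16 to -0.054 when single libraries were left out.

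All 39 members together had summed levels in CPM of 445, 227, 345 and 932 across sgRosa replicates 1 to 4 and 338, 274 and 288 across sgNr2f2 replicates 1 to 3. sgRosa replicate 4 held more than any other library. Against neuron markers the picture differed: per 10000 pan-neuronal marker counts the members summed to 4207, 2907, 3194 and 2643 across sgRosa replicates 1 to 4 and 3063, 3663 and 2812 across sgNr2f2 replicates 1 to 3. On that scale sgRosa replicate 4 was the lowest library, and the group means were 3238 ± 684 in sgRosa (SD, n = 4) and 3180 ± 437 in sgNr2f2 (SD, n = 3). Pore-forming members summed to 1065 ± 196 and 923 ± 316 and auxiliary members to 2173 ± 499.9 and 2256 ± 144 on the same scale, differences smaller than the SD of at least 1 group in each case.

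**Figure D5:**
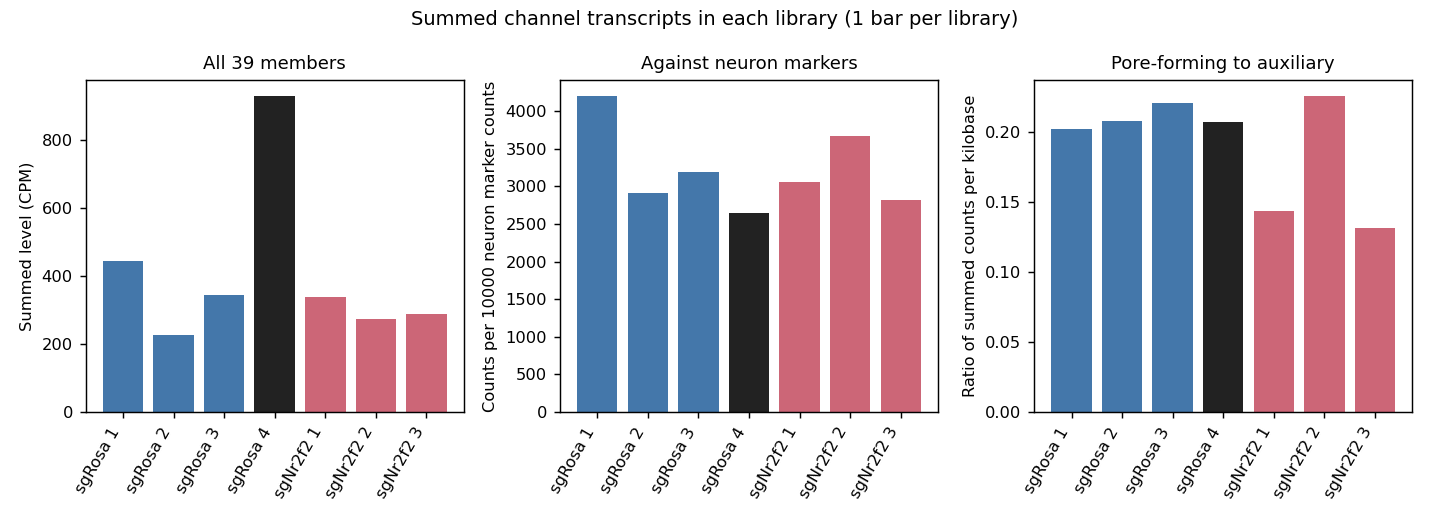
Channel transcripts summed per library: all 39 members in CPM (left), all members per 10000 pan-neuronal marker counts (middle), and the ratio of pore-forming to auxiliary counts per kilobase (right). Blue and black bars are sgRosa, black its replicate 4, and red bars sgNr2f2. The black bar is the tallest on the left and the shortest in the middle, and on the right 2 of 3 red bars are below the 4 sgRosa bars.

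Genes whose products work with these channels were taken from a written list of 37, of which 36 were in the table and 35 were tested. None passed edgeR's adjusted test, 23 were below 0 and 12 above, and their median log2 fold change was -0.34 against -0.11 over all genes. Without sgRosa replicate 4, DESeq2 called 1 of them, Cnih2, where 2.32% of all genes were called. Cnih2 is an AMPA receptor trafficking gene that was named after its values were seen. By edgeR its log2 fold change was above 0, at 0.12 with all libraries and 1.39 without sgRosa replicate 4. That DESeq2 fit still called 0 channel members, as did pan-neuronal scaling without that library, which called 0.227% of all genes. The 4 partner genes with the smallest edgeR p all had lower means in sgNr2f2. Their means ± SD are given for sgRosa (n = 4) and then sgNr2f2 (n = 3). Shisa9, an AMPA receptor auxiliary protein gene, lay at 13.99 ± 6.85 and 5.47 ± 0.409 CPM. Rrad, which encodes a small GTPase that blocks calcium channels, lay at 7.13 ± 3.62 and 2.08 ± 1.08 CPM. Nrcam, a cell adhesion gene of the node of Ranvier, lay at 64.04 ± 35.2 and 27.02 ± 4.01 CPM. Nalcn, the sodium leak channel, lay at 13.98 ± 4.61 and 7.29 ± 1.09 CPM. Their log2 fold changes were -1.35, -1.77, -1.24 and -0.94, and without sgRosa replicate 4 they were -1.05, -1.52, -0.95 and -0.70.

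Many members are neighbours. On chromosome 2, Scn3a, Scn1a, Scn9a and Scn7a lie with Scn2a1 between 65457118 and 66784910, and on chromosome 9 Scn10a and Scn11a lie between 119608456 and 119825456. These 5 genes of chromosome 2, all tested, had log2 fold changes below 0, from -0.95 for Scn2a1 to -2.82 for Scn7a. Without sgRosa replicate 4, Scn3a, Scn1a, Scn9a and Scn7a were at -0.98, -0.70, -0.46 and -3.05. Of all 14 tested pore-forming members 13 were below 0, and 56.2% of all genes were. The neighbours Scn2b and Scn4b on chromosome 9 were above 0, while Scn3b on the same chromosome was at -1.78. Other neighbours had opposite signs: Cacna1c at -0.48 and Cacna2d4 at 1.46 on chromosome 6, and Cacng5 at -0.53 and Cacng4 at 0.10 on chromosome 11. On chromosome 14, Cacna2d3 at -0.65 and Cacna1d at -0.76 had the same sign.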

How the data were processed

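The 7 libraries were analysed from whole-number counts per gene symbol, which the authors deposited without normalization. Each library's own file matched the joint table (7 of 7). Per the submitters' processing notes, the tools included fastp 0.23.2 and STAR 2.7.5c, with featureCounts 2.0.1 for counting, edgeR 3.42.4, and mm10 as the build. Annotation, strand setting and the handling of reads with several positions: not given in the sources used here. Exons of 5 members overlap another counted gene, 4 of them on the opposite strand, so reads may have been exchanged.

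Tests used edgeR 4.0.16 (quasi-likelihood F test with TMM, filterByExpr and group as the only term; Benjamini-Hochberg adjustment over 14412 genes, threshold 0.05), checked on simulated data. Alternatives were DESeq2 1.42.0, limma-voom (limma 3.58.1), library size alone, scaling to 15 pan-neuronal markers, no filter, a replicate block and leaving out each library. Exact permutation tests were two-sided on log2 CPM with a prior count of 2. By rule, values in each library were to be given for the 20 members of highest mean CPM and the 6 of smallest p among the rest, and of partner genes the 4 of smallest p are named. Transcript lengths came from GENCODE M21, coordinates and promoters from RefSeq GRCm38.p6. Results for 2 single members are not reported here, though totals and medians over the set include them. Members and lists were chosen with earlier results of these data known.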

Additional observations from a re-analysis of the deposited data

Results flagged for a closer look

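In 7 of the members described by value, sgRosa replicate 4 lay farther from the other 3 sgRosa libraries than Dixon's 95% limit for 4 samples allows. It was the highest for 6 of them: Cacnb3 at 42.9 CPM (next library 8.24), Cacna1a at 27.6 CPM (next 5.01) and Cacnb1 at 20.96 CPM (next 3.65). The other 3 were Cacna1i at 20.8 CPM (next 4.35), Cacng5 at 13.1 CPM (next 4.17) and Cacna1d at 7.62 CPM (next 2.81). For Cacnb4 it was the lowest, at 23.3 CPM (next 36.5). Of 32 groups tested in this way 7 were flagged. Chance flags about 1 in 20 of independent, normally distributed groups. These groups share the same libraries, so the count cannot be judged against that rate. How often all genes would be flagged was not counted. These 7 share 1 library. That library also held the largest share of pan-neuronal marker counts, 0.413%, and the smallest of oligodendrocyte marker counts, 2.69%, and the part of either in these levels was not tested.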

How the results depend on the processing

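No member passed the adjusted threshold in any setting run. DESeq2 called 7 genes of all tested and edgeR 0. Limma-voom gave medians of -0.59 over pore-forming and -0.046 over auxiliary members, against -1.07 and -0.53 by edgeR, with Cacnb4 at -0.046 and Cacnb3 at 0.071. Library size alone gave medians of -1.33 and -0.82, with Cacnb4 at -0.22. Pan-neuronal scaling gave a median of -0.16 over pore-forming and 0.22 over auxiliary members, with Cacng2 at 0.091, Cacnb3 at 0.42, Cacna1b at 0.33, Cacnb1 at 0.28, Cacng5 at 0.22 and Cacna1c at 0.12. With a replicate block, which drops the unpaired sgRosa replicate 4, the medians were -0.17 and 0.13. In that fit 3 members lay apart, 1 lower and 2 higher, against 8.95% and 9.11% of all genes. Cacnb4 stood at -0.20, Cacnb3 at 0.64, Cacna1b at 0.39, Cacnb1 at 0.49, Cacng5 at 0.13 and Cacna1c at 0.037. Correlations of same-numbered libraries, on deviations from group means, were -0.20, -0.26 and 0.090. Those of differently numbered libraries ran from -0.14 to 0.25. The same-numbered values -0.20 and -0.26 lay below that range and 0.090 within it, so same-numbered libraries did not deviate together more than others. So few correlations cannot decide whether the same number marks a pair, and the labels give only the number. Leaving out single libraries gave 1 to 7 members apart. Without sgRosa replicate 1 and without sgNr2f2 replicate 1 there was 1 each, lower, against 6.17% and 7.58% of all genes. Without sgRosa replicate 2 there were 7 of 30, all lower, against 6.16% of all genes on that side. Without sgNr2f2 replicate 2 there were 7 of 33, 5 lower and 2 higher, against 8.85% and 9.18% of all genes. Without sgRosa replicate 3 there were 3, all lower (5.11% of all genes), without sgRosa replicate 4 there were 3, 1 lower and 2 higher (8.95% and 9.11%), and without sgNr2f2 replicate 3 there were 2, both lower (7.05%). Medians then ran from -1.30 to -0.13 over pore-forming and from -0.75 to 0.27 over auxiliary members. Single genes ran from -0.22 to 0.39 for Cacnb4, -1.18 to 0.73 for Cacnb3, -0.94 to 0.30 for Cacna1b, -1.15 to 0.55 for Cacnb1 and -1.16 to 0.27 for Cacng5; apart from Cacnb4, the upper end is the value without sgRosa replicate 4. Share differences ran from -4.59 to 0.13 percentage points for Scn1a, -2.15 to 3.69 for Scn2a1, -4.00 to -0.96 for Scn3a and 2.48 to 7.69 for Scn8a.

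Both of the following were chosen after seeing the data. DESeq2 without sgRosa replicate 4 called 358 genes and 1 partner gene. There 3 members lay apart, 1 lower and 2 higher, against 7.74% and 6.28% of all genes. Medians were -0.061 and 0.30, with Cacnb4 at -0.065, Cacnb3 at 0.76, Cacna1b at 0.33, Cacna1a at 0.0029, Cacnb1 at 0.58 and Cacng5 at 0.30. Pan-neuronal scaling without that library called 32 genes. It had 2 members apart, 1 lower and 1 higher, against 5.2% and 6.52% of all genes. Medians were -0.10 and 0.26, with Cacnb4 at -0.15, Cacnb3 at 0.74, Cacna1b at 0.44, Cacna1a at 0.036, Cacnb1 at 0.58, Cacna1i at 0.026 and Cacng5 at 0.26. The cause of these shifts was not tested.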
